A study of Homo sapiens with 9 samples.

Results

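Fibronectin, the fibrillins and the matricellular proteins were followed as 10 genes, *FN1*, *TNC*, *THBS1*, *THBS2*, *FBN1*, *FBN2*, *FBLN1*, *SPARC*, *SPP1* and *POSTN*. They were chosen by name as secreted proteins of the extracellular matrix, with earlier results of these data known. All 10 were found among the 60708 annotated genes of the count files. RNA was sequenced from cells labelled MDA-MB-231, a human triple-negative breast cancer cell line with mesenchymal features, in 9 libraries of untreated cells. WT, the unedited line, had 3 libraries. The clones CS16 and CS19, made by CRISPR/Cas9 editing of *SNAI1* and puromycin selection, had 3 libraries each, together 6 libraries labelled *SNAI1*-KO. Each clone was grown from a single cell, so each stands for 1 editing event, and the loss of *SNAI1*, the choice of a clone and any other difference from the WT cells cannot be told apart. The labels did not say whether the libraries of a group came from separate cultures, so p-values measured only the spread between these libraries.

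Fibronectin is assembled by cells into fibrils through integrins and is a common marker of the mesenchymal state. Fibrillins form the microfibrils on which elastic fibers are built and which hold latent TGFβ, and fibulins bind to both networks. Matricellular proteins, such as thrombospondins, tenascin C, SPARC, osteopontin and periostin, add little to the structure of the matrix and instead modulate adhesion, proteases and growth factors. SNAI1 is a zinc finger repressor that binds E-box motifs in promoters and drives epithelial-mesenchymal transition.

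The promoters of 5 of the 7 genes called below are shown, so that members that rose and members that fell can be compared there. Those of *TNC* and *FBLN1* were searched but are not printed. The bases come from RefSeq (GRCh38.p14), in which a promoter was found for 10 of 10 members, and run 5′ to 3′ on the gene's strand within the 250 bases before the RefSeq start. Bases that belong to an exon of the same gene in the annotation were left out. Capitals mark a match to 1 of 5 motifs searched on both strands. FN1 is at chr2:215436074-215436318 on the minus strand, THBS1 at chr15:39580829-39581078 on the plus strand and FBN1 at chr15:48644971-48645220 on the minus strand. FBN2 is at chr5:128538246-128538495 and SPARC at chr5:151686976-151687165, both on the minus strand. The FBN1 and FBN2 stretches lay inside their annotated genes but outside the exons, hence in introns of longer transcripts. The first 3 genes fell and the last 2 rose in the libraries labelled *SNAI1*-KO.
FN1: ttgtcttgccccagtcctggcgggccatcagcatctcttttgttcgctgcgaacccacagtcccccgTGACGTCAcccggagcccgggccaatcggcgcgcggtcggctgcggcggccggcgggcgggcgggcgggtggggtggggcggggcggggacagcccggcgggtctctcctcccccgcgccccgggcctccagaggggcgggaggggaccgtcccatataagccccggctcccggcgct
THBS1: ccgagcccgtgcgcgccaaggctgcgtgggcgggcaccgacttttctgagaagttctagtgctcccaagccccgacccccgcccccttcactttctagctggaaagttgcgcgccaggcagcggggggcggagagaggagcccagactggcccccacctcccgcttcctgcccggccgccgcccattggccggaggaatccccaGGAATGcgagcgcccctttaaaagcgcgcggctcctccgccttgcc
FBN1: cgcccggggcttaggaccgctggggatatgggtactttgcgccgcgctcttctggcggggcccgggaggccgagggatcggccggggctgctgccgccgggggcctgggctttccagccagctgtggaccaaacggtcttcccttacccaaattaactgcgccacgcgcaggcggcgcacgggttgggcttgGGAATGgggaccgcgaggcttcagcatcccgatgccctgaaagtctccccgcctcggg
FBN2: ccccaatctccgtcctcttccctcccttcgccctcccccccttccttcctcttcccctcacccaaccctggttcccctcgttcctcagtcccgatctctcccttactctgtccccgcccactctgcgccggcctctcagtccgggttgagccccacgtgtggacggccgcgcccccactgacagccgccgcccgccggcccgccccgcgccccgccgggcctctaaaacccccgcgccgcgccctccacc
SPARC: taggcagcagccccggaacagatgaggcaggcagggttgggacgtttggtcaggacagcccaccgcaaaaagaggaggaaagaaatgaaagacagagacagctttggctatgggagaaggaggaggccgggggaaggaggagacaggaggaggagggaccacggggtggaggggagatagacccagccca

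The E-box CAGGTG, the core bound by SNAI1 and related repressors, was found in the promoter of only 1 of the 10 members, *SPP1*, and in 17.5% of the 27305 promoters searched. GGAATG, the core recognized by TEAD factors, was present before *THBS1* and *FBN1*, which fell, but also before *SPARC*, which rose, in bases beyond the stretch shown, and before *THBS2*. It occurred in 11.9% of all promoters. TGACGTCA, the cAMP response element, was present in *FN1*, 176 to 183 bases before the start, and in 1.77% of all promoters. The AP-1 motif TGANTCA (6.60% of all promoters) was found in *POSTN* only, and TATAAA (11.1%) in *POSTN* and *THBS2*. The promoters of *TNC*, *FBN2* and *FBLN1* held none of these letters.

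Between 19527195 and 28627777 read pairs were counted per library. WT-2 stood apart from the other WT libraries. A chi-square per degree of freedom over gene counts was 188 between WT-1 and WT-2, 230.2 between WT-2 and WT-3 and 14.6 between WT-1 and WT-3, and mitochondrial genes took 2.40% of the counts in WT-2 against 0.795% in WT-1 and 0.645% in WT-3. Results that rest on WT-2 are therefore given without it too.

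The targeted gene was not lower in the libraries labelled *SNAI1*-KO. *SNAI1* had 0.791, 2.17 and 1.08 CPM in WT (CPM, counts scaled to library size with TMM factors), 1.28, 1.91 and 1.95 in CS16, and 2.595, 4.08 and 3.08 in CS19. WT-2 was within the range of the clones, so the groups overlapped. The log2 fold change against WT was 0.89 (standard error (SE) 0.42, Benjamini-Hochberg adjusted p = 0.0836 in the quasi-likelihood test of edgeR), and 1.40 without WT-2 (adjusted p = 0.0126, edgeR). A count over the whole gene does not show whether the reading frame was kept.

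Markers of the labelled cell line were checked because they bear on every comparison with WT. The 10 markers of MDA-MB-231, among them *VIM*, *EGFR*, *CAV1*, *CAV2*, *LGALS1*, *S100A4*, *ANXA1* and *PLAUR*, summed to 7216, 7096 and 8167 CPM in WT, 437, 452 and 417 CPM in CS16 and 373, 384 and 377 CPM in CS19. All but *VIM* were called lower, with a median log2 fold change of -5.36, or -5.65 without WT-2. *VIM*, or vimentin, stood at 922 ± 226 CPM in the WT libraries, at 339 ± 17.4 in those of CS16 and at 305 ± 1.61 in those of CS19 (SD, n = 3 each), and fell by 1.52 on the log2 scale (adjusted p = 7.43e-06, edgeR). *AXL*, a receptor tyrosine kinase and the most abundant of them in WT, had 1744 ± 595 CPM in WT (SD, n = 3) and 2 to 12 counts in each clone library. The neighbors *CDKN2A*, *CDKN2B* and *MTAP* on chromosome 9p21 were at 0 in all 3 WT libraries, and had together 164 to 182 CPM in the clones, at least 352-fold, 74.9-fold and 658-fold higher. The libraries of both clones thus differed from WT in all 10 markers of the labelled line, 9 of them past the fold cut-off, and in the 9p21 genes. Editing of *SNAI1* and a difference in the identity of the cells cannot be told apart in any comparison with WT below, so CS16, CS19 and *SNAI1*-KO name libraries by their labels only.

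Markers of cells that could add matrix RNA did not share a direction. Over all genes tested, 12.6% were called higher and 14.3% lower, or 13% and 12.9% without WT-2. Of 10 fibroblast markers, 7 were tested and 2 were called higher and 2 lower. Their sum was 62.3 to 132.7 CPM in WT, highest in WT-2, 69.3 to 72.4 in CS16 and 15.5 to 19.4 in CS19. *COL3A1*, the most abundant of them over all libraries, had 0.599 ± 0.190 CPM in WT, 56.6 ± 2.41 in CS16 and 6.27 ± 0.766 in CS19 (SD, n = 3 each). In the other direction, *COL1A2*, the most abundant of them in WT, had 797 to 1409 counts per WT library and none in any clone library, at least 429-fold lower, and *PDGFRB* changed by -6.16 on the log2 scale (adjusted p = 8.37e-07, edgeR). *COL1A2* and *PDGFRB* were chosen after their values were seen. *DCN*, a defining gene of fibroblasts, was at 0 in WT and in CS19 and had 1 to 3 counts per library in CS16. The 8 endothelial markers, led by *EGFL7*, gave 4 tested genes, 2 of them called lower, and without WT-2 *CLDN5*, named after its values were seen, was called higher (log2 fold change of 2.01, adjusted p = 0.00295, edgeR, in place of 0.33). They summed to 28.7 to 61.6 CPM in WT and to at most 15.4 in the clones. *CDH5*, which defines these cells, had at most 1 count in any library. In contrast, *PECAM1* and *KDR* had 100 to 119 and 128 to 157 counts per WT library. The 9 macrophage markers, led by *CSF1R*, gave 2 tested genes, both called lower, and summed to 12.3 to 19.2 CPM in WT and at most 1.24 in the clones. *TYROBP* was at 0 throughout, while *CD14* had 97 to 105 counts per WT library. *DCN*, *CDH5*, *PECAM1*, *KDR*, *TYROBP* and *CD14* were named outside the rule for naming given below. Of 9 embryonic kidney markers, 7 were tested, 4 called higher and 1 lower, or 5 higher and 1 lower without WT-2. Their sum was 19.1, 39.1 and 18.8 CPM in WT and 55.3 to 57.6 CPM in the clones, above every WT library. *SALL1*, the most abundant of the 9, and *HOXD11* had no count in WT and were at least 120-fold and 67.4-fold higher in the clones, while *PAX8*, a transcription factor of the kidney lineage, had 202 to 452 counts per WT library and 2 counts over all clone libraries. *HOXD11* and *PAX8* were chosen after their values were seen. Their part in the results was not tested.

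Of the 10 genes, 7 passed the filter on low counts and all 7 were called in the libraries labelled *SNAI1*-KO against WT, at an absolute log2 fold change of at least 2 and an adjusted p below 0.05 (edgeR). *FN1*, *TNC*, *THBS1* and *FBN1* were lower, and *SPARC*, *FBN2* and *FBLN1* were higher. Among all 19631 genes tested, 26.9% were called, 12.6% higher and 14.3% lower. The same 7 genes were called in the same direction in CS16 against WT, where 27.1% of 18611 genes were called (11.8% higher and 15.3% lower), and in CS19 against WT, where 26.3% of 18935 genes were called (12% higher and 14.4% lower). These comparisons share the WT libraries. *FBN2* passed the filter only through the clone libraries, and in CS19 against WT *TNC* passed only through WT. A gene that passes in this way is likely to be called. The 10 genes were also chosen with earlier results known, so the share of them called is not independent support. The 3 remaining members, *THBS2*, *SPP1* and *POSTN*, had at most 20 counts in any library. In bulk RNA, fewer cells that express a gene and less RNA per cell cannot be told apart.

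**Figure D1:**
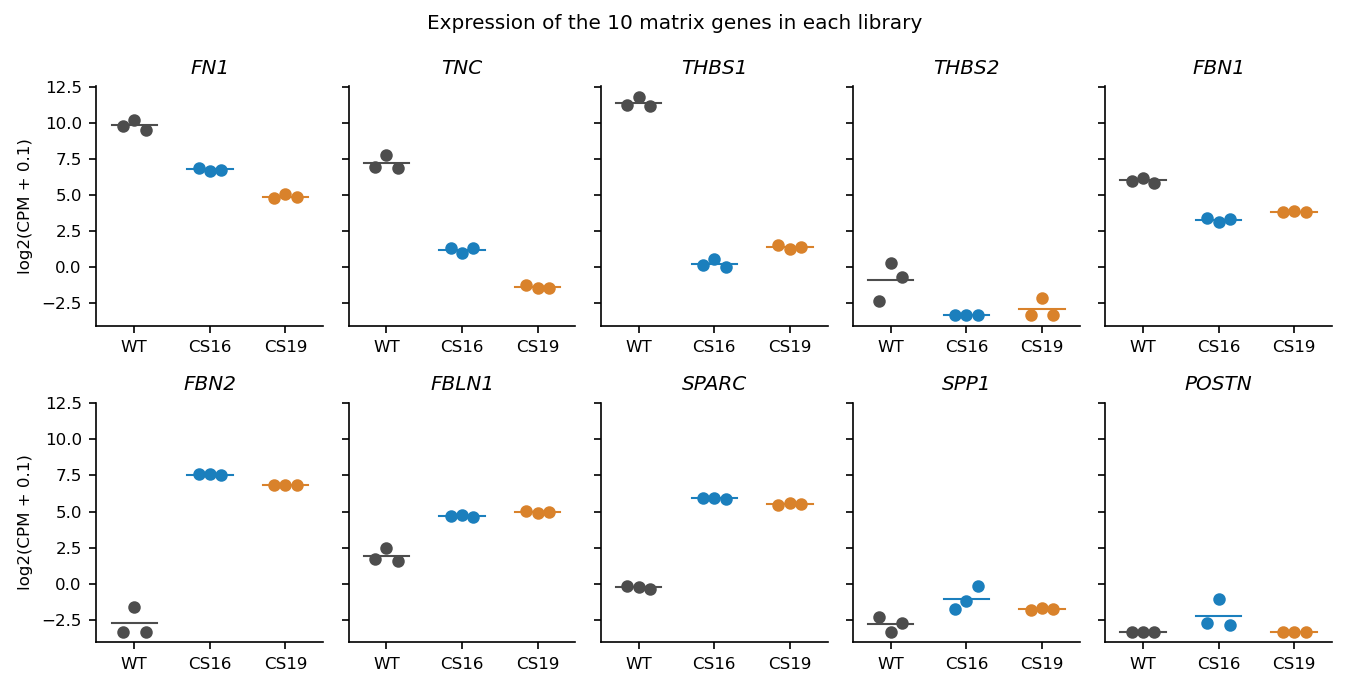
Expression of the 10 genes in each library, as log2(CPM + 0.1), with 1 panel per gene. Points are the 3 libraries of WT, CS16 and CS19 and lines their means. *FN1*, *TNC*, *THBS1* and *FBN1* lie higher in every WT library, *FBN2*, *FBLN1* and *SPARC* in every clone library, and the other 3 genes stay near the bottom of the scale.

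*FN1* (ENSG00000115414, chr2:215360440-215436073, minus strand, GRCh38), which encodes fibronectin, was measured at 866, 1183 and 741 CPM in WT, 119, 102 and 109 CPM in CS16 and 27.3, 33.1 and 28.9 CPM in CS19. Each group lay apart from the others, with WT highest and CS19 lowest. The log2 fold change of the *SNAI1*-KO libraries against WT was -3.74 (SE 0.49, adjusted p = 4.40e-05, edgeR), or -3.53 without WT-2. Against WT it was -3.05 in CS16 and -4.93 in CS19. Per length, *FN1* in WT stood at 176 ± 58.9 TPM (SD, n = 3), where TPM divides counts by exon length, rank 734 of 35103 genes with a count, and at rank 6088 of 34233 in CS16 and 10908 of 35510 in CS19.

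*TNC* (ENSG00000041982, chr9:115019575-115118257, minus strand) encodes tenascin C, which weakens adhesion to fibronectin and is abundant at wound and tumor margins. It had 124, 219 and 118.1 CPM in WT, 2.46, 1.86 and 2.39 CPM in CS16, and 0.319, 0.261 and 0.262 CPM in CS19. The CS19 values rested on 6 to 8 counts per library. WT-2 was the highest library and no groups overlapped. *TNC* fell by 6.95 on the log2 scale (SE 0.65, adjusted p = 2.72e-06, edgeR), by 6.07 in CS16 and by 9.04 in CS19. Without WT-2 the change was -6.63.

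*THBS1* (ENSG00000137801, chr15:39581079-39599466, plus strand) encodes thrombospondin 1, which activates latent TGFβ and inhibits angiogenesis. It showed the lowest log2 fold change of the 7 tested members. It was measured at 2366, 3576 and 2354 CPM in WT, 0.982, 1.39 and 0.917 CPM in CS16, and 2.82, 2.30 and 2.59 CPM in CS19. In raw counts these were 45785 to 62507 per WT library and 20 to 79 per clone library. CS16 was the lowest group, and here the order of the clones was the opposite of that in *FN1* and *TNC*. The log2 fold change was -10.55 (SE 0.40, adjusted p = 2.44e-09, edgeR), with -11.27 in CS16 and -10.03 in CS19. *THBS1* ranked 81 of 35103 genes by TPM in WT (981 ± 326 TPM, SD, n = 3), 23706 of 34233 in CS16 and 19592 of 35510 in CS19. Its exons share 411 and 448 bases with genes on the other strand, *THBS1-AS1* and *FSIP1*, and strand was not used in counting. *FSIP1* had 58 counts in WT and 133 over the clones, beside 266 of *THBS1* over the clones. By clone, *FSIP1* had 70 counts beside 72 of *THBS1* in CS16, and 63 beside 194 in CS19. The low clone values, most of all those of CS16, and the order of the clones are therefore uncertain. *THBS1-AS1* had no count.

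*THBS2* (ENSG00000186340), the antiangiogenic thrombospondin 2, had 2, 20 and 10 counts in WT, none in CS16, and 0, 3 and 0 in CS19. It was lower in the clones by a ratio of pooled CPM of 26.5 (95% counting interval 8.28 to 135.1), or of 14.3 (3.86 to 79.0) without WT-2, but the WT level came mostly from WT-2 and CS19 overlapped WT-1. It did not pass the filter. With every gene tested, the log2 fold change was -4.32 (adjusted p = 0.000356, edgeR). *THBS2-AS1* covers 31.2% of its exon bases and had 17 counts against 35 of *THBS2*, so these reads are uncertain.

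The fibrillins changed in opposite directions. *FBN1* (ENSG00000166147, chr15:48408313-48645721, minus strand) encodes fibrillin 1, the main microfibril protein of adult tissue. It had 63.7, 73.5 and 57.1 CPM in WT, 10.5, 8.65 and 10.1 CPM in CS16 and 13.9, 14.7 and 14.0 CPM in CS19. All clone libraries were below all WT libraries, and CS16 was the lowest group. Its log2 fold change of -2.43 (SE 0.19, adjusted p = 5.76e-07, edgeR) was the smallest of the 4 genes that fell, and in CS19 it was -2.15, close to the cut-off of 2.

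*FBN2* (ENSG00000138829, chr5:128257909-128659185, minus strand) encodes fibrillin 2, which is made mainly in development. It had 0, 4 and 0 counts in WT, 3862, 3992 and 4595 in CS16 and 2552, 2686 and 3490 in CS19, or 183 to 191 CPM in CS16 and 114.4 to 116.7 CPM in CS19. The 4 WT counts all came from WT-2. The ratio of pooled CPM between the *SNAI1*-KO and WT libraries was 2133 (95% counting interval 833 to 7829). Without WT-2 no WT count was left, and *FBN2* was at least 1004-fold higher in the clones, taking 3 counts per WT library as the floor. The fitted log2 fold change was 10.96 (SE 0.61, adjusted p = 3.80e-08, edgeR). The spread within CS16 and within CS19 was small, 188 ± 4.14 and 115.8 ± 1.18 CPM (SD, n = 3 each).

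By TPM, which compares genes per length of their merged annotated exons, *FBN1* made up 99.8% of fibrillin RNA in WT, while *FBN2* made up 96.2% in CS16 and 90.6% in CS19 (means, n = 3 each). The third fibrillin, *FBN3*, reached 1.42% in CS19. The summed level of the 3 fibrillins was 11.4 ± 2.65 TPM in WT, 46.1 ± 6.07 TPM in CS16 and 29.3 ± 3.23 TPM in CS19 (SD, n = 3 each). Fibrillin RNA was thus more abundant in both clones and of another kind, with *FBN1* at 1.65 TPM in CS16 and 2.33 TPM in CS19.

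*FBLN1* (ENSG00000077942, chr22:45502238-45601135, plus strand) encodes fibulin 1, which binds fibronectin and lies along elastic fibers and basement membranes. It had 3.21, 5.32 and 2.93 CPM in WT, 26.3, 27.0 and 24.8 CPM in CS16 and 32.3, 30.1 and 30.8 CPM in CS19. No clone library overlapped WT, and CS19 was above CS16. *FBLN1* rose by 2.90 on the log2 scale (SE 0.23, adjusted p = 7.10e-07, edgeR), with 2.80 in CS16 and 3.06 in CS19.

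*SPARC* (ENSG00000113140, chr5:151661096-151686975, minus strand) encodes a calcium-binding protein that binds collagen and counteracts cell spreading. Its values were 0.791, 0.744 and 0.668 CPM in WT, 60.9, 62.2 and 57.6 CPM in CS16, and 44.0, 47.6 and 45.8 CPM in CS19. The WT values rested on 13 to 16 counts per library and WT-2 was in the middle of them. *SPARC* rose by 6.16 on the log2 scale (SE 0.24, adjusted p = 2.37e-09, edgeR), by 6.38 in CS16 and 5.99 in CS19. Its rank by TPM moved from 23733 of 35103 genes in WT to 3585 of 34233 in CS16 and 4406 of 35510 in CS19.

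*SPP1* (ENSG00000118785) encodes osteopontin, a ligand of integrins and CD44. It had 2, 0 and 1 counts in WT, 4, 7 and 20 in CS16 and 4, 5 and 6 in CS19. The clones were higher by a ratio of pooled CPM of 6.18 (95% counting interval 1.99 to 31.1), or of 4.29 (1.38 to 21.6) without WT-2. CS16-3 was the highest library. With every gene tested, the log2 fold change was 2.61 (adjusted p = 0.0166, edgeR) for both clones together, 3.07 in CS16 (adjusted p = 0.0105, edgeR) and 1.92 in CS19 (adjusted p = 0.168, edgeR), so CS19 alone did not pass. An unnamed gene on the other strand shares 196 of its exon bases and had 19 counts over all libraries against 49 of *SPP1*. In WT that gene had 10 counts against 3 of *SPP1*, so the *SPP1* reads are uncertain. *POSTN* (ENSG00000133110), which encodes periostin, a matrix protein of fibroblasts, had 1, 8 and 1 counts in CS16 and none in the other 6 libraries, so its level was at or below the floor of 3 counts in 8 of 9 libraries.

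**Figure D2:**
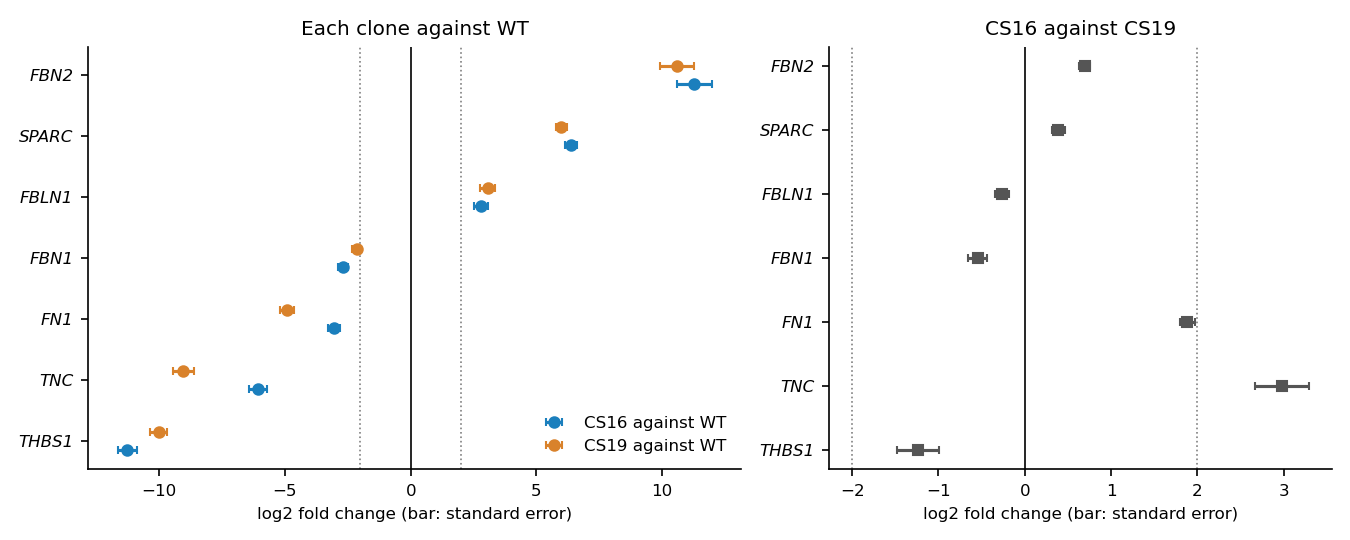
Log2 fold changes of the 7 tested genes from edgeR, with bars for the standard error. The left panel shows each clone against the same 3 WT libraries, the right panel CS16 against CS19, and dotted lines mark the cut-off of 2. Both clones lie on the same side of 0 for every gene on the left, and on the right only *TNC*, at 2.98, lies beyond the cut-off.

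The clones were then compared with each other. Of the 7 tested members, only *TNC* was called, with a log2 fold change of CS16 against CS19 of 2.98 (SE 0.31, adjusted p = 2.94e-06, edgeR), beside 1.12% of 17538 genes called, 0.627% higher and 0.496% lower in CS16. At an adjusted p below 0.05 without a fold cut-off, all 7 members differed, as did 27.9% of all genes. *FN1* was higher in CS16 by 1.88 (adjusted p = 2.10e-10, edgeR), a ratio of pooled CPM of 3.70. *THBS1* was lower in CS16 by a log2 fold change of -1.24. The other 4 genes differed by less than 1 on the log2 scale, with *FBN2* at 0.69, *SPARC* at 0.39, *FBN1* at -0.55 and *FBLN1* at -0.26. The difference of *FBLN1* was the weakest (adjusted p = 0.0264, edgeR) and was lost without CS16-1, CS16-3, CS19-1 or CS19-3. These 4 differences were also lost in 1 fit of all 3 groups, where WT enters the estimate of spread (adjusted p = 0.114 to 0.724, edgeR).

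The 10 genes summed to 1126, 1673 and 869.7 TPM in WT, 137, 104 and 114.9 TPM in CS16 and 78.7, 86.4 and 69.1 TPM in CS19. All clone libraries were below all WT libraries, and without WT-2 the WT mean was 998 TPM in place of 1223 TPM. *THBS1* alone made up 80.3% ± 1.00 of the sum in WT (SD, n = 3), followed by *FN1* with 14.4% ± 0.950 and *TNC* with 4.16% ± 0.431. In CS16 *FBN2* was first with 37.3% ± 0.414, then *SPARC* with 34.1% ± 0.762, *FN1* with 16.7% ± 1.198 and *FBLN1* with 9.37% ± 0.232. In CS19 the leading genes were *SPARC* with 38.4% ± 0.923, *FBN2* with 34.1% ± 0.506 and *FBLN1* with 16.6% ± 0.865, and *FN1* held 6.71% ± 0.552. The share of *THBS1* was 79.3%, 80.2% and 81.3% in WT-1, WT-2 and WT-3, so WT-2 was in the middle although its summed level was the highest.

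The paralogs of the members were examined as a list of 25 genes. Of the 17 that were tested, 6 were called higher and 5 lower in the *SNAI1*-KO libraries, and their median log2 fold change was -0.17 beside -0.0040 over all genes tested. The share called over all genes, for these and the lists that follow, was 12.6% higher and 14.3% lower. Those higher were *FBN3*, *SMOC1*, *THBS4*, *COMP*, *FBLN2* and *FBLN5*. Those lower were *TGFBI*, *FBLN7*, *EFEMP1*, *TNXB* and *SPOCK1*. The counts were the same without WT-2.

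Among the fibulins the leading gene changed. *EFEMP1*, which encodes fibulin 3, had 222 ± 60.4 CPM in WT, 4.18 ± 0.720 in CS16 and 3.67 ± 0.295 in CS19 (SD, n = 3 each), a log2 fold change of -5.82 (SE 0.20, adjusted p = 1.29e-09, edgeR). It made up 92.6% of fibulin TPM in WT. *FBLN5*, whose product guides elastic fiber assembly, had 1 to 5 counts per WT library and 199 to 337 per clone library, and rose by 6.44 (SE 0.41, adjusted p = 1.12e-07, edgeR). In the clones *FBLN1* and *FBLN5* led the fibulins, with 43.2% and 28.8% in CS16 and 48.8% and 24.6% in CS19. *FBLN2* was at 2 counts over the WT libraries and at 158 in the clones, a ratio of 31.8 (95% counting interval 8.67 to 265). The summed fibulin level was 190 ± 34.4 TPM in WT, 26.0 ± 4.18 in CS16 and 26.6 ± 3.50 in CS19. *FBLN7* went from 431 counts over the WT libraries to 4 over the clones, a ratio of 267, or 181 without WT-2.

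The SPARC family showed a rise of 2 members with little change in its sum. *SMOC1*, a calcium-binding protein of basement membranes, had 3 counts over the WT libraries, all in WT-2, and 719 to 924 counts per clone library, a ratio of 659 (95% counting interval 225 to 3197). Without WT-2 no WT count was left and *SMOC1* was at least 232-fold higher. *FSTL1*, the secreted follistatin-like member that led the family in every group, was measured at 119 ± 20.6 TPM in WT, 55.3 ± 6.45 in CS16 and 63.2 ± 3.66 in CS19 (SD, n = 3 each). The family summed to 123 ± 21.03 TPM in WT, 127 ± 17.7 in CS16 and 115.9 ± 10.2 in CS19, so the sum of each clone differed from that of WT by less than the spread between libraries. *SPOCK1*, a testican, fell by 2.46 on the log2 scale (SE 0.61, adjusted p = 0.00411, edgeR), with -4.15 in CS19 and -1.60 in CS16, where it was not called. *FSTL1* and *SPOCK3* were chosen after their values were seen. *SPOCK3*, another testican, had 124 counts over the WT libraries, 253 over CS16 and none in CS19, and was the only paralog called between the clones.

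Thrombospondins other than *THBS1* and *THBS2* stayed at low levels. *THBS3*, named after its values were seen, led the family in both clones, with 46.6% of its TPM in CS16 and 55.6% in CS19. This gene had an average of 6.85 TPM in WT, 3.45 in CS16 and 5.00 in CS19, and was not called. *THBS4* had 6 to 7 counts per WT library and an average of 3.37 CPM in CS16 and 3.39 CPM in CS19, and rose by 3.32 on the log2 scale (SE 0.26, adjusted p = 5.51e-07, edgeR), and *COMP*, the thrombospondin of cartilage, had 8 counts in WT-2, none in the other WT libraries and 16 to 31 per clone library. Its ratio was 7.55 (95% counting interval 3.74 to 17.8), and without WT-2 it was at least 7.03-fold higher. It was called in CS16 against WT but not in CS19 against WT (adjusted p = 0.0522, edgeR), where it was called without WT-2 (adjusted p = 6.97e-06, edgeR). The 5 genes of the family together gave 988 ± 328 TPM in WT, 7.36 ± 1.44 in CS16 and 8.97 ± 0.740 in CS19 (SD, n = 3 each). Of the relatives of *TNC*, *TNXB* was called lower, with 124, 522 and 98 counts in WT and 11 to 28 per clone library. The WT level was 15.4 times that of the clones, or 6.61 times without WT-2. *TGFBI*, the periostin relative that is named for its induction by TGFβ, had 128 ± 8.65 CPM in WT and 8 counts in all over the 6 clone libraries, a ratio of 2267 (95% counting interval 1150 to 5252).

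The CCN genes encode matricellular proteins outside the 10 members. Of 6, 4 were tested, and *CCN1*, *CCN2* and *CCN3* were called lower and *CCN6* higher. Their median was -5.20, or -4.68 without WT-2. *CCN1*, which promotes adhesion and angiogenesis, had 5374, 15692 and 4608 counts in WT and 146 to 430 in the clone libraries, so that WT-2 stood well above the other WT libraries and all of these above the clones. Its log2 fold change was -5.48, or -4.59 without WT-2. *CCN2*, or connective tissue growth factor, fell from 166 ± 28.1 CPM in WT to 2.33 ± 0.581 in CS16 and 8.56 ± 1.17 in CS19 (SD, n = 3 each), a log2 fold change of -4.92 (SE 0.48, adjusted p = 4.17e-06, edgeR). *CCN3* fell from 473 counts over the WT libraries to 24 over the clones. *CCN6* was close to the limit of detection, with 2 counts over the WT libraries and 90 over the clones, a ratio of 18.1 (95% counting interval 4.88 to 152).

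Partners of the fibrillins in microfibrils and elastic fibers gave 21 tested genes of 23. Of these, 11 fell past the cut-off and 2 rose, and the median log2 fold change was -2.02, where 14.3% of all genes were called lower and 12.6% higher. Without WT-2, 9 were called lower and the median was -1.42, as *LTBP2* and *LTBP4*, latent TGFβ-binding protein family members of microfibrils that were named after their values were seen, moved to -1.42 and -0.72. *MFAP2*, a small microfibril glycoprotein, had 89 to 108 counts per WT library and at most 2 per clone library. *ADAMTSL2*, which binds fibrillins, had 63 to 179 counts per WT library and none in any clone library, at least 44.9-fold lower, or at least 27.8-fold without WT-2. *ADAMTSL1* fell by 6.12 on the log2 scale (SE 0.34, adjusted p = 3.55e-08, edgeR). *ADAMTS10*, a fibrillin-binding protease relative, was higher, with 6 counts over the WT libraries and 452 over the clones, a ratio of 30.4 (95% counting interval 13.8 to 83.1), or 126 (22.6 to 5004) without WT-2, where 1 WT count was left. *FBLN5*, given above, was the other gene called higher.

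Receptors of the members, listed with the collagen receptor *DDR2*, gave 14 tested genes of 16. Of these, 4 including *DDR2* were called higher and 7 lower, with a median of -1.74. Without WT-2, 6 were lower, since *ITGA5*, the fibronectin receptor subunit α5, moved from just past the cut-off to -1.72. It was named after its values were seen. *ITGB1*, the β1 subunit shared by most fibronectin receptors, fell from 1748 ± 408 CPM in WT to 169 ± 13.2 in CS16 and 176 ± 21.5 in CS19 (SD, n = 3 each), a log2 fold change of -3.34 (SE 0.17, adjusted p = 1.58e-08, edgeR). *SDC4*, the syndecan that binds fibronectin with integrins, fell by 3.89 (SE 0.14, adjusted p = 1.52e-09, edgeR). *CD44*, a receptor of hyaluronan and osteopontin, had 11142 to 13853 counts per WT library, none in CS16 and 2 in CS19. *ITGA4* and *ITGA8*, whose integrins bind fibronectin and osteopontin or tenascin, were higher. *ITGA4* had no count in WT and 153 to 302 per clone library, at least 56.7-fold higher. *ITGA8* had 2 counts over the WT libraries and 297 to 541 per clone library, a ratio of 489 (95% counting interval 135 to 4041). *DDR2*, a collagen receptor, rose from 4.34 ± 0.524 CPM in WT to 97.6 ± 6.38 in CS16 and 129 ± 2.77 in CS19.

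Proteases, crosslinkers and other modifiers of the matrix, with thrombomodulin and a kinase among them, gave 8 tested genes of 12, 2 called higher and 6 lower, with a median of -6.87, or 1 higher, 6 lower and -6.31 without WT-2. *MMP14*, a membrane-bound collagenase, fell from 662 ± 266 CPM in WT to 0.761 ± 0.300 in CS16 and 0.797 ± 0.196 in CS19 (SD, n = 3 each), and *PLAU*, or urokinase, from 411 ± 38.3 to 1.06 ± 0.270 and 1.18 ± 0.311. *THBD*, thrombomodulin, had 752 to 1353 counts per WT library and 6 counts in all over the clone libraries. *MMP2*, a gelatinase, had 2 to 6 counts per WT library and 80 to 191 per clone library, a log2 fold change of 4.65 (SE 0.48, adjusted p = 5.96e-06, edgeR). *ADAMTS1*, a protease that releases fragments of thrombospondins, had 376 to 407 counts in WT, 7806 to 8927 in CS16 and 1045 to 1543 in CS19. It was called higher in both clones together (3.38, adjusted p = 0.00554, edgeR) but not without WT-2 (3.48, adjusted p = 0.0623, edgeR), and the change was 4.24 in CS16 and 1.27 in CS19, below the cut-off. Between the clones, *ADAMTS1* and *FAM20C*, a secretory kinase named after its values were seen, were called, both higher in CS16, by 2.98 and 2.82.

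**Figure D3:**
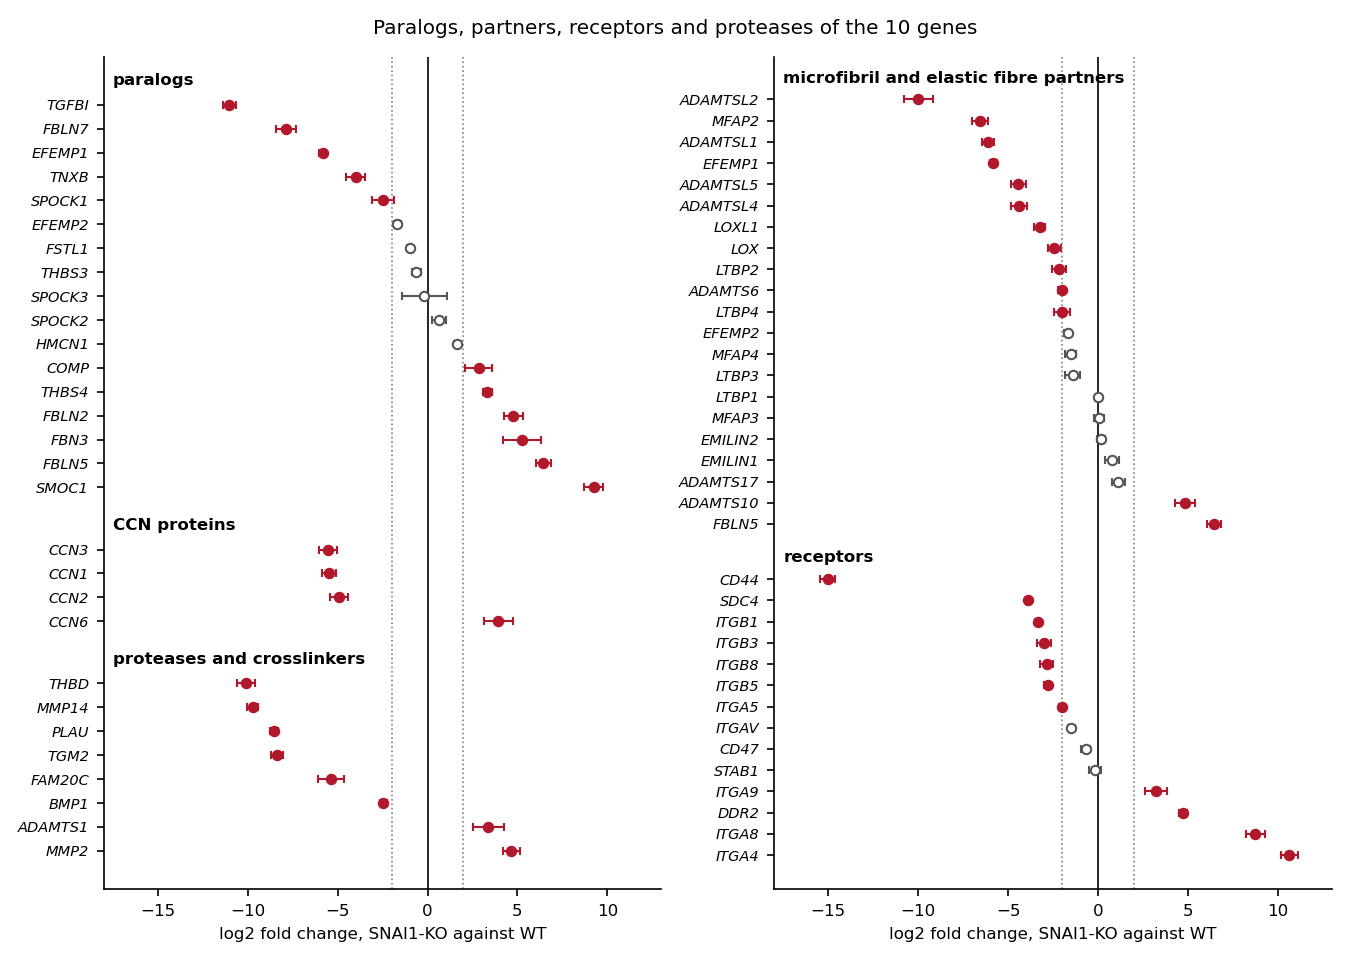
Log2 fold changes of the *SNAI1*-KO libraries against WT (edgeR, bars for the standard error) for the tested paralogs, CCN genes, partners, receptors, and proteases and other modifiers. Red points were called, white points were tested and not called, and dotted lines mark the cut-off of 2. *CD44*, at -15.04, lies farthest to the left and *ITGA4* farthest to the right. Fitted values of *ADAMTSL2* and *ITGA4*, each without a count in 1 group, depend on the prior count of the fit and are no bound.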

How the data were processed

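RNA of 9 libraries (WT, CS16 and CS19, 3 each) was prepared by the authors with a stranded total RNA kit after ribosomal RNA depletion and sequenced as read pairs. The authors deposited raw counts per gene, made by trimming with Trimmomatic (0.36), alignment with STAR (2.7.2b) to GRCh38.p13 and counting with featureCounts of Subread (2.0.0), without use of strand per the file headers. Reads from genes that overlap on opposite strands therefore cannot be told apart. The libraries held 19527195 to 28627777 counts (median 21463266), and a symbol was found for 60463 of 60708 genes (99.6%).

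Counts were tested with edgeR (4.0.16, R 4.3.3; filterByExpr, TMM factors, quasi-likelihood F test), over all genes in each comparison, with Benjamini-Hochberg adjustment. Genes were called at an absolute log2 fold change of at least 2 and an adjusted p below 0.05, the cut-offs of the study. DESeq2, the test of the study, was run here in version 1.42.0 as an alternative. CPM and TPM were computed from the counts, TPM with the exon lengths in the files. These lengths merge all annotated exons of a gene and need not equal those of the RNA made. Shares and ranks between genes, above all close ones, depend on them. Ratios of pooled CPM carry exact 95% intervals, which cover counting error only, and 3 counts per library served as the floor for genes without counts. In data simulated with 200 genes changed by a true absolute log2 fold change of 4, all 200 were recovered with 0 false calls, for *SNAI1*-KO against WT (19166 genes with edgeR, 40207 with DESeq2) and for CS16 against WT (18604 and 38118). The changed genes were well counted and all genes had the same spread. No outlying library and no difference between clones was simulated. Recovery there thus checks the code only, and does not show how genes of few counts or a library such as WT-2 fare.

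The 10 genes and all lists were chosen with earlier results of these data known. Named were the 10 genes and *SNAI1*, every paralog and CCN gene called, up to 3 called genes at each end of the lists of partners, receptors and proteases with other modifiers, all line and 9p21 markers and the most abundant marker of each other cell type. *ADAMTSL6* was listed under an alias (*THSD4* in the files), was not matched and was not analysed. Alternatives covered normalization, test, filter, cut-off, replicate block, a joint fit of the 3 groups, single libraries and the 100 most abundant genes. Counts of the lists and ratios without WT-2 were added after seeing the data. No list was tested as a set. One listed marker is not reported here and was left out of its list.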

Additional observations from a re-analysis of the deposited data

Results flagged for a closer look

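At an adjusted p below 0.05 without a fold cut-off, all 7 tested genes differed when CS16 and CS19 were compared directly (edgeR's quasi-likelihood test, Benjamini-Hochberg adjustment, n = 3 each). So did 27.9% of all 17538 genes tested. Only *TNC* passed the cut-off of 2 on the log2 scale. The fall of *FN1* was smaller in CS16, by 1.88 on the log2 scale (adjusted p = 2.10e-10, edgeR). The fall of *TNC* was smaller in CS16 too, by 2.98 (adjusted p = 2.94e-06, edgeR). *THBS1* and *FBN1* fell more in CS16, with differences of -1.24 (adjusted p = 0.00106, edgeR) and -0.55 (adjusted p = 0.00128, edgeR). *FBN2* and *SPARC* rose more in CS16, by 0.69 (adjusted p = 4.16e-07, edgeR) and 0.39 (adjusted p = 0.000515, edgeR). *FBLN1* rose less in CS16, with a difference of -0.26 (adjusted p = 0.0264, edgeR). This difference was lost without CS16-3 (adjusted p = 0.119, edgeR) and without CS19-1 (adjusted p = 0.116, edgeR). It was also lost without CS16-1, without CS19-3, with DESeq2 and with the replicate block. In 1 fit of the 3 groups, the differences of *FN1*, *TNC* and *THBS1* passed the adjusted p and those of the other 4 did not.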

How the results depend on the processing

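The 7 tested members kept their direction against WT in every alternative in which they were tested, and 7 were called when any 1 library was left out. Without the 100 genes of highest mean CPM 6 were called in each comparison with WT, since *THBS1* is 1 of those 100. With DESeq2 9, 9 and 8 members were called in *SNAI1*-KO, CS16 and CS19 against WT, and 9, 10 and 8 without the filter on low counts, which adds the genes of few counts. In *SNAI1*-KO against WT, both settings took in all 41910 genes with a count in any library, in place of 19631. Their counts over all genes below therefore have a larger base. Over all genes, 5271, 5039 and 4987 were called in these comparisons. This became 8626, 7564 and 7503 without the filter, 12466, 10237 and 9926 without a fold-change cut-off, 9243, 8535 and 8277 with a cut-off of 1 on the log2 scale, 7662, 6880 and 6871 with DESeq2, and 5165 to 5961, 5174 to 5816 and 5165 to 5737 when 1 library was left out. Between CS16 and CS19, 1 member and 197 genes were called, with 2 (*TNC* and *POSTN*) and 350 without the filter, 7 and 4893 without a cut-off, 3 and 830 with a cut-off of 1 on the log2 scale, and 1 and 224 to 251 when 1 library was left out. The difference of *FBLN1* between the clones had an adjusted p of 0.0701 without CS16-1, 0.119 without CS16-3, 0.116 without CS19-1, 0.0835 without CS19-3, 0.0751 with DESeq2, 0.101 with the replicate block and 0.724 in 1 fit of the 3 groups. In that fit the differences of *SPARC*, *FBN1* and *FBN2* had adjusted p of 0.172, 0.114 and 0.294 (edgeR). The fitted log2 fold change of *FBN2* was 14.75 in place of 10.96 without WT-2, as no WT count was left. With the replicate number as a replicate block, 5219, 4938, 4916 and 200 genes and 7, 7, 7 and 1 members were called. Deviations of libraries with the same number correlated at -0.21 to 0.19, so the numbers did not pair the libraries. Changes of *THBS2*, *SPP1* and *POSTN* were limited by at most 20 counts per library.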
